A study of Caenorhabditis elegans with 6 samples.

Results

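The genes described here are 7 regulators and effectors of the seam cells, the lateral row of stem-like cells in the epidermis of Caenorhabditis elegans: ceh-16, egl-18, elt-6, rnt-1, bro-1, eff-1 and aff-1. They were taken by name, with earlier results of these data known, and all 7 were found by their WormBase sequence names among the 45343 features of the expression table. The RNA came from whole larvae midway through larval stage L3 (mid-L3), which had been synchronized by bleaching and grown on agar plates. One group was wild type (WT), the strain N2 Bristol, and the other carried tm548, a mutant allele of blmp-1, with 3 libraries in each group. No other treatment, driver or transgene is named in the labels. What the allele removes, and whether the 3 libraries of a group came from separate cultures, is not stated there, so p-values measure the spread between these libraries, which may be technical.

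Seam cells divide asymmetrically in each larval stage. As a rule the anterior daughter fuses with the hypodermal syncytium hyp7, while the posterior daughter stays a seam cell. The transcription factors CEH-16, EGL-18 and ELT-6 keep the seam fate, and RNT-1 with its partner BRO-1 promotes seam divisions. EFF-1 and AFF-1 are the fusogens, membrane proteins that fuse cells, and the seam cells themselves fuse with each other at the end of larval life. The zinc-finger factor BLMP-1 is known as a target of the DRE-1 ubiquitin ligase in the timing of epidermal development. The comparison of the groups shows how the transcripts of the 7 genes stand in whole larvae that carry the blmp-1 mutation.

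None of the 7 genes passed the test between mutant and WT. The test was limma on log2(FPKM + 1), where FPKM is the fragments of a transcript scaled by its length in kilobases and by the library's mapped fragments, with Benjamini-Hochberg adjustment over all 17058 features tested and a call at an adjusted p under 0.05. By this rule 6.40% of the features tested were called (570 higher and 522 lower in the mutant), and 0 of 7 members were. At an unadjusted p under 0.05 there was 1 member, elt-6, while 23% of all features tested (3917) were under it. In 4 of the 7 genes the ranges of the groups did not overlap, with the mutant above WT for egl-18, elt-6 and rnt-1 and below it for ceh-16. Of all features tested, 28.7% had groups that did not overlap. The median log2 difference of the members was 0.15, against 0.00 over all features tested.

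**Figure D1:**
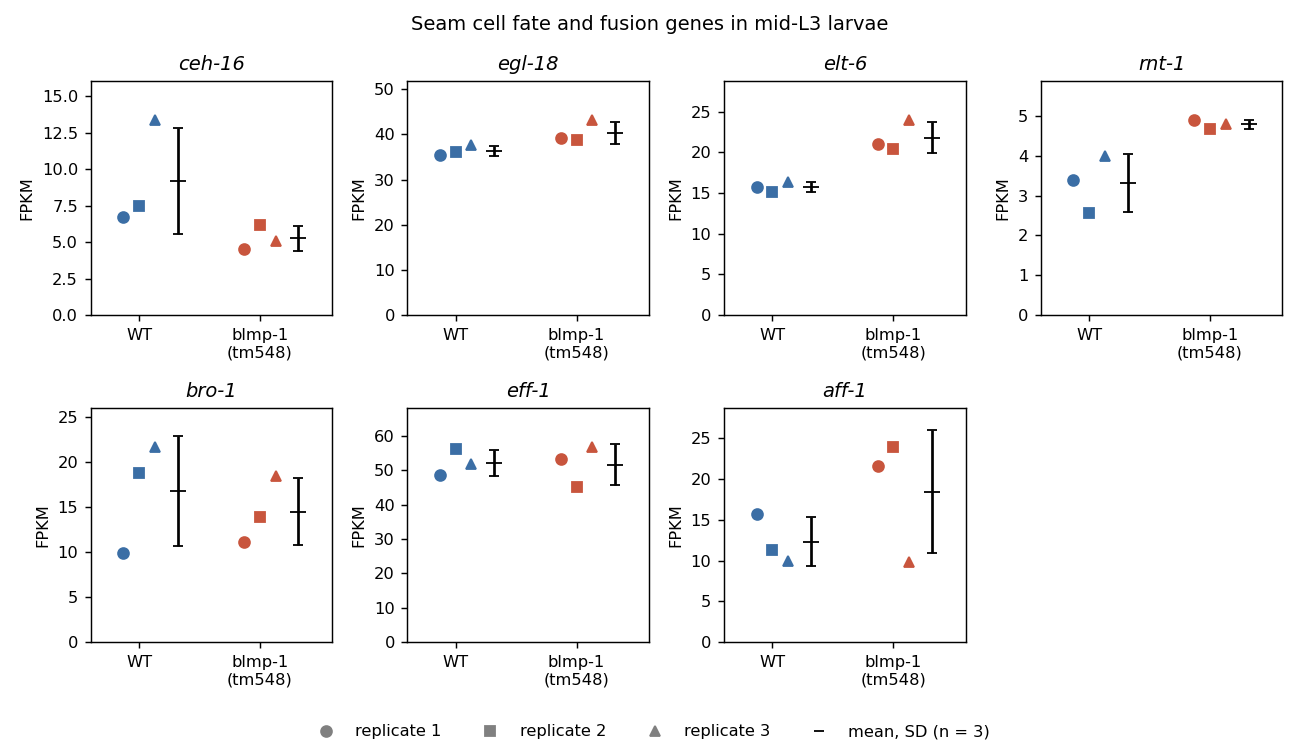
FPKM (linear axes from 0) of the 7 genes in each library, with WT in blue and blmp-1(tm548) in red, the marker shape giving the replicate number, and the black bar the mean with SD (n = 3). The groups are apart for ceh-16, egl-18, elt-6 and rnt-1 and overlap for bro-1, eff-1 and aff-1.

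The libraries were alike in estimated depth, with 7420000 to 7990000 reads each as read from the step size of low FPKM values. This estimate is of the library size used to scale the values. Whether that equals the number of reads sequenced is not stated. On that estimate the members rested on about 30 reads (rnt-1 in WT replicate 2) to about 992 reads (eff-1 in mutant replicate 3) per library. The targeted gene, blmp-1 (F25D7.3), had values of 64.9, 71.1 and 75.2 FPKM in WT replicates 1 to 3 and of 40.3, 36.9 and 38.0 FPKM in mutant replicates 1 to 3, so that each library stood with its label. Its log2 difference was -0.86 (SE 0.0715, limma adjusted p = 0.00299). Mutant replicate 3 lay nearer to WT than the other mutant libraries for some epidermal transcripts and farther from WT for others. For example, the molting factor gene bed-3 was at 26.9 and 23.9 FPKM in mutant replicates 1 and 2 and at 42.9 FPKM in mutant replicate 3, with WT at 60.7 to 78.2 FPKM. The chromatin factor gene egl-27 was at 75.6 and 81.4 FPKM in mutant replicates 1 and 2 and at 84.9 FPKM in mutant replicate 3, with WT at 66.8 to 71.5 FPKM. The summed levels of markers overlapped between the groups for body wall muscle (794 to 878 FPKM in the WT libraries and 822 to 885 in the mutant ones), intestine (867 to 947 and 865 to 934), the rest of the epidermis (702 to 758 and 708 to 761), pharynx (309 to 358 and 347 to 378) and germline (315 to 394 and 382 to 422). Those of the neuron markers did not, at 486 to 491 and 492 to 515 FPKM. None of these 33 markers was called by limma, and 2 had an unadjusted p under 0.05, beside the 23% of all features. Their part in the results below was not tested.

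The level of the 7 genes in WT, in FPKM and thus per length, ran from eff-1 (52.2 ± 3.76) and egl-18 (36.4 ± 1.17) through bro-1 (16.8 ± 6.11), elt-6 (15.7 ± 0.602), aff-1 (12.3 ± 3.03) and ceh-16 (9.18 ± 3.65) down to rnt-1 (3.31 ± 0.724; mean ± SD, n = 3). The WT ranges of eff-1 and egl-18 were apart from each other and from those below. The lowest gene, rnt-1, was apart from ceh-16. Between them, bro-1 and elt-6, elt-6 and aff-1, and aff-1 and ceh-16 overlapped as neighbours in this order, while elt-6 (15.1 to 16.3 FPKM) was above ceh-16 (6.70 to 13.4 FPKM) in every WT library. In the mutant elt-6 and aff-1 ranked above bro-1, at means of 21.8, 18.5 and 14.5 FPKM, and the ranks of the other 4 genes were as in WT. The mutant range of elt-6 (20.3 to 24.0 FPKM) was apart from that of bro-1 (11.1 to 18.5 FPKM). That of aff-1 (9.81 to 23.9 FPKM) enclosed the bro-1 values, and in mutant replicate 3 aff-1 was below bro-1. In whole larvae, fewer cells of a type and less RNA per cell cannot be told apart, and several of these genes are also used outside the seam.

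The engrailed homolog ceh-16 (C13G5.1) is known to hold seam cells back from fusing with hyp7. It was at 6.70, 7.48 and 13.4 FPKM in WT replicates 1 to 3, and at 4.51, 6.20 and 5.11 FPKM in mutant replicates 1 to 3. WT replicate 3 was 2.0-fold above WT replicate 1, and the gap between the groups, from 6.20 to 6.70 FPKM, was small beside that spread. The log2 difference of -0.65 had a 95% interval of -1.31 to 0.01 (limma, SE 0.271, adjusted p = 0.223). Without WT replicate 3 it was -0.37 (adjusted p = 0.318). In the WBcel235 annotation 57 nt of its exons lie over polk-1 on the opposite strand, where reads of the genes could not be told apart without strand. The means of polk-1 were 26.1 ± 2.16 FPKM for WT and 24.8 ± 0.353 FPKM for the mutant (adjusted p = 0.649).

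The GATA factors egl-18 (F55A8.1, also known as elt-5) and elt-6 (F52C12.5) act together downstream of Wnt signalling to keep the seam fate. In the WBcel235 annotation they are neighbours among the protein-coding genes of chromosome IV. The value of egl-18 was 35.4, 36.1 and 37.7 FPKM in WT replicates 1 to 3, and 39.1, 38.8 and 43.2 FPKM in mutant replicates 1 to 3. That of elt-6 was 15.7, 15.1 and 16.3 FPKM in the WT libraries, and 21.0, 20.3 and 24.0 FPKM in the mutant libraries. Each mutant library was above each WT library for both genes, and mutant replicate 3 was the highest for both.

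The log2 difference of elt-6 was 0.44 (SE 0.0956, 95% interval 0.21 to 0.67), which is 1.36-fold on the log2(FPKM + 1) scale, and its limma adjusted p of 0.0509 just missed the threshold. The interval is not adjusted for the number of features. This gene passed in 6 of 17 alternative settings, among them a pseudocount of 0.5 (adjusted p = 0.0480), with a range over the settings of 0.00837 to 0.250. Without any single library its adjusted p was between 0.0759 and 0.184, with log2 differences of 0.37 to 0.49. The log2 difference of egl-18 was 0.15 (SE 0.0661, 95% interval -0.01 to 0.31, adjusted p = 0.253). On the fold scale that interval runs from 0.99 to 1.24.

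The ratio of elt-6 to egl-18 FPKM within a library, chosen after the values were seen, does not depend on the scaling between libraries. It was 0.445, 0.419 and 0.434 in WT replicates 1 to 3 and 0.538, 0.524 and 0.555 in mutant replicates 1 to 3. The mean went from 0.433 ± 0.0128 to 0.539 ± 0.0155 (SD, n = 3), and each mutant library lay above each WT library. The ratio of ceh-16 to egl-18 was 0.189, 0.207 and 0.355 in the WT libraries and 0.115, 0.160 and 0.118 in the mutant libraries. This ratio was bound to be apart between the groups, since in every mutant library ceh-16 was below WT and egl-18 above it. It adds nothing to the values of the 2 genes. WT replicate 3 stood above the other WT libraries by a wide margin. The genes on the outer sides of the neighbouring GATA genes, egl-4 and denn-4, had log2 differences of 0.12 and 0.13 (adjusted p = 0.214 and 0.581).

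**Figure D2:**
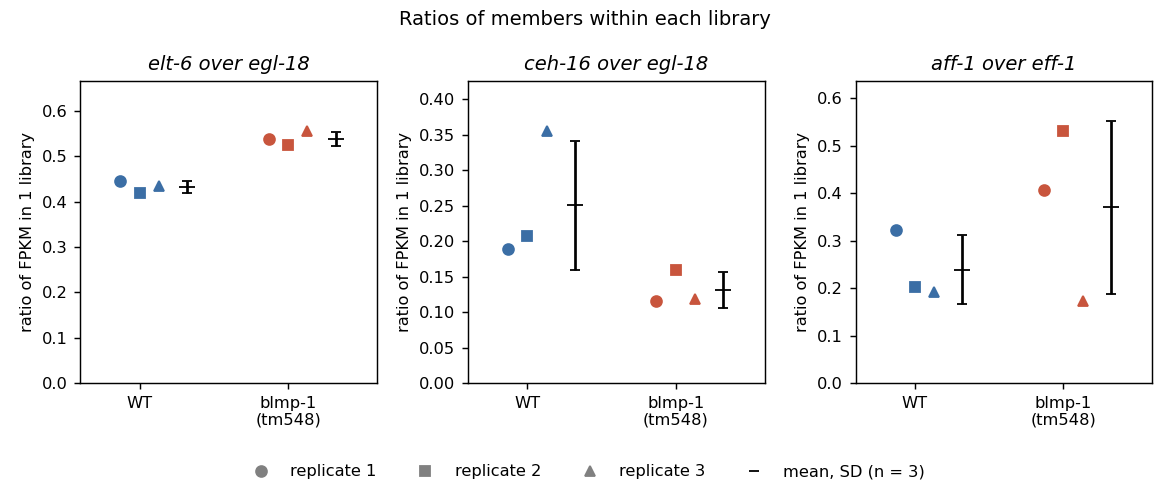
Ratio of the FPKM of 1 member to that of another within each library (linear axes from 0), by group, with the marker shape giving the replicate number and the black bar the mean with SD (n = 3). The ratio of elt-6 to egl-18 is 0.419 to 0.445 in WT and 0.524 to 0.555 in the mutant, while that of aff-1 to eff-1 overlaps between the groups.

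RNT-1 is the Runx factor of the worm and BRO-1 its CBF-beta partner, and in seam cells they are known to promote division and to hold down the cell cycle inhibitor gene cki-1. The value of rnt-1 (B0414.2) was 3.38, 2.55 and 3.99 FPKM in WT replicates 1 to 3, and 4.90, 4.66 and 4.80 FPKM in mutant replicates 1 to 3. The mutant libraries were close together (SD 0.119 FPKM) and all above WT, whose SD was 0.724 FPKM. The log2 difference was 0.44 (SE 0.191, 95% interval -0.02 to 0.90, limma adjusted p = 0.238). Among 16 alternative settings it passed with library weights alone (adjusted p = 0.0368), with a range over the settings up to 0.558. With library weights 4117 of all features were called, against 1092 in the reported fit. The highest weight, 4.07, went to WT replicate 2, where rnt-1 was lowest. This is the lowest of the 7 genes, with about 30 to 61 reads per library.

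The value of bro-1 (F56A3.5) was 9.95, 18.8 and 21.7 FPKM in WT replicates 1 to 3, and 11.1, 13.9 and 18.5 FPKM in mutant replicates 1 to 3. Replicate 1 was the lowest library in each group, and the WT range of 2.18-fold enclosed the mutant values. The log2 difference of -0.16 had an interval from -0.93 to 0.60 (SE 0.315, adjusted p = 0.806), and its sign turned without WT replicate 3 or mutant replicate 1 (0.046 and 0.0017). Over replicates 2 and 3 of both groups it was -0.32 (adjusted p = 0.528). The spread of bro-1 and ceh-16 among the WT libraries, as an SD of log2 values, was above that of 91.3% and 89.0% of the features tested, while those of elt-6 and egl-18 were above 17.9% and 14.2%.

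The fusogen gene eff-1 (C26D10.5) is needed for most fusions of epidermal cells with hyp7. It was at 48.8, 56.2 and 51.7 FPKM in WT replicates 1 to 3, and at 53.2, 45.1 and 56.8 FPKM in mutant replicates 1 to 3. The libraries of the groups were interleaved. The log2 difference was -0.02 (SE 0.10, 95% interval -0.26 to 0.22, limma adjusted p = 0.936). On the fold scale this interval runs from 0.833 to 1.17. Its exons share 34 nt with C26D10.6 on the opposite strand in the WBcel235 annotation, which had a log2 difference of -0.20 (adjusted p = 0.1).

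AFF-1, the other fusogen, fuses the anchor cell with the uterine seam syncytium and takes part in the late fusion of the seam cells. The value of aff-1 (C44B7.3) was 15.7, 11.3 and 9.93 FPKM in WT replicates 1 to 3, and 21.6, 23.9 and 9.81 FPKM in mutant replicates 1 to 3. Mutant replicates 1 and 2 were above all WT libraries, and mutant replicate 3 was the lowest of the 6 libraries. The log2 difference of 0.48 had a wide interval, -0.37 to 1.33 (SE 0.35, adjusted p = 0.476). Without single libraries it ran from 0.25 (without mutant replicate 2, adjusted p = 0.785) to 0.86 (without mutant replicate 3, adjusted p = 0.0819). The fibrillin-like apical matrix gene fbn-1, picked after its values were seen, had a similar order in the mutant. It was at 48.1, 52.7 and 28.4 FPKM in mutant replicates 1 to 3 against 30.7 to 36.9 FPKM in WT. Its groups overlapped (log2 difference 0.30, limma adjusted p = 0.506). The summed level of 15 molting cycle genes, fbn-1 among them, had the reverse order in the mutant. It was 1184, 1191 and 1412 FPKM in mutant replicates 1 to 3 against 1336 to 1568 FPKM in WT. Of these 15 genes bed-3, nas-36 and bli-5 were called lower and none higher, with a median log2 difference of -0.17. Of all features 6.40% were called. At an unadjusted p under 0.05 there were 6, beside 23% of all features. Among these nhr-23 was higher and the others lower in the mutant. It was at 43.8 to 46.3 FPKM in WT and 53.9 to 71.1 FPKM in the mutant (log2 difference 0.47, limma adjusted p = 0.0536). The number of molting cycle genes called was 0 when either WT replicate 2 or mutant replicate 1 was left out, against 7 when mutant replicate 3 was. The part of the molting cycle in the spread of aff-1 was not tested. Markers of the vulva, anchor cell and uterus, where aff-1 is also used, had summed levels of 264, 318 and 259 FPKM in mutant replicates 1 to 3 and 193 to 255 FPKM in WT, which do not overlap. None of these 7 markers was called (1 at an unadjusted p under 0.05), and their part in the value of aff-1 was not tested.

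**Figure D3:**
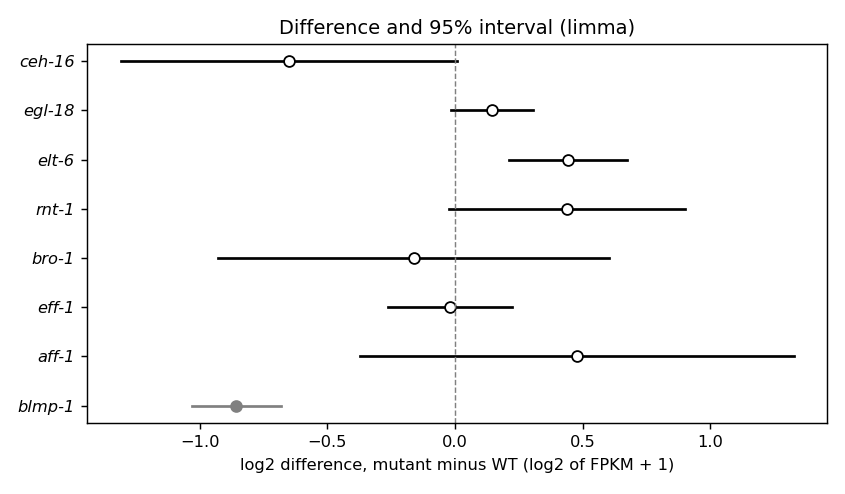
Log2 difference of mutant minus WT on the log2(FPKM + 1) scale for the 7 genes and, in grey, blmp-1, with points for the limma estimate (filled where the adjusted p was under 0.05) and lines for the unadjusted 95% interval (n = 3 per group). The interval of eff-1 is narrow around 0 (-0.26 to 0.22), that of elt-6 lies above 0 (0.21 to 0.67), and those of bro-1 and aff-1 are the widest.

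An exact permutation test of each gene, two-sided over the 6 libraries, cannot go below p = 0.1 with 3 against 3. It gave this smallest p for ceh-16, egl-18, elt-6 and rnt-1, and the exact permutation p was 0.7, 1 and 0.4 for bro-1, eff-1 and aff-1 (n = 3 per group).

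Around rnt-1 and bro-1 in the control of cell division, 3 of 18 tested cell cycle genes were called higher in the mutant and none lower, out of 20 listed. The median log2 difference over the 18 genes was 0.07, and 5 had an unadjusted p under 0.05. Of these, cki-1, cki-2 and cdc-14 were higher and cdk-4 and cdk-1 lower in the mutant. For this list and those below, the shares over all features tested were 6.40% called and 23% at an unadjusted p under 0.05. The genes cki-1 and cki-2 encode inhibitors of cyclin-dependent kinases, and cdc-14 encodes a phosphatase known to keep cell divisions quiescent through CKI-1. The value of cki-1 (T05A6.1) was 62.8, 57.6 and 53.1 FPKM in WT replicates 1 to 3 and 78.2, 80.0 and 82.0 FPKM in mutant replicates 1 to 3 (log2 difference 0.47, SE 0.0688, limma adjusted p = 0.0167). That of cki-2 (T05A6.2) was 31.5, 33.8 and 33.0 FPKM in the WT libraries and 43.1, 44.0 and 41.1 FPKM in the mutant libraries (0.37, adjusted p = 0.0215). That of cdc-14 (C17G10.4) went from 61.6 ± 0.886 to 71.0 ± 1.40 FPKM (0.20, adjusted p = 0.0431). Each mutant library lay above each WT library for these 3 genes. The kinase gene cdk-4, which drives entry into the cell cycle, averaged 24.1 ± 2.70 FPKM over the WT libraries and 18.5 ± 1.0 over the mutant ones and did not pass (adjusted p = 0.110). The RNA came from whole larvae, so the values are not those of the seam alone. The call of cki-1 was lost without WT replicate 2 or mutant replicate 1 or 2 (adjusted p = 0.0782, 0.0635 and 0.0696), that of cki-2 without these (0.0796, 0.0964 and 0.0916) or WT replicate 3 (0.0568), and that of cdc-14 whichever library was left out (0.0720 to 0.174). The call of cdc-14 was also lost with median scaling (0.0857), an untrended prior variance (0.0908) and a block for the replicate number (0.0695).

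Wnt signalling acts above egl-18, and its asymmetry branch, which works through the beta-catenins SYS-1 and WRM-1 and the kinase LIT-1, decides which daughter keeps the seam fate. Of 30 Wnt pathway genes 1 was called higher and none lower, with a median log2 difference of 0.02. At an unadjusted p under 0.05 there were 7 genes, on both sides of WT. Neither count stood out from the shares over all features, 6.40% called and 23% at an unadjusted p under 0.05. The gene that rose was bar-1 (C54D1.6), the beta-catenin of the canonical branch, at 31.8, 31.4 and 33.7 FPKM in WT replicates 1 to 3 and 39.8, 41.2 and 40.8 FPKM in mutant replicates 1 to 3 (log2 difference 0.32, limma adjusted p = 0.0290). Of the asymmetry branch, sys-1 averaged 24.1 ± 2.17 FPKM over the WT libraries and 22.5 ± 6.96 FPKM over the mutant ones (adjusted p = 0.756), wrm-1 at 31.9 ± 1.05 and 31.2 ± 0.459 (adjusted p = 0.809) and lit-1 at 101.5 ± 13.4 and 98.4 ± 11.8 (adjusted p = 0.877). The TCF factor gene pop-1, the nuclear end of the pathway, was at 67.8 ± 1.75 and 78.9 ± 4.96 FPKM (adjusted p = 0.0883). The Frizzled receptor gene mom-5 was at 61.2 ± 1.71 and 54.2 ± 0.963 FPKM (adjusted p = 0.0876). Whichever library was left out, bar-1 missed the threshold (adjusted p = 0.0508 to 0.13), and a block for the replicate number ended its call too (0.0592).

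Of 16 other transcription factors of epidermal and seam fate none was called, and 1 had an unadjusted p under 0.05. It was egl-27, a chromatin factor, with means of 68.8 ± 2.39 FPKM for WT and 80.6 ± 4.68 FPKM for the mutant (adjusted p = 0.0809). The GATA gene elt-1, which specifies the epidermis, was at 24.0 ± 1.35 and 25 ± 1.01 FPKM. The nuclear receptor gene nhr-73 was at 15.4, 22.4 and 26.8 FPKM in WT replicates 1 to 3 and at 12.9, 13.3 and 17.1 FPKM in mutant replicates 1 to 3 (log2 difference -0.52, adjusted p = 0.226). The groups overlapped, and replicate 1 was the lowest in each. The median log2 difference of the 16 genes was 0.07.

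Among 17 regulators and partners of cell fusion none was called, and 1 had an unadjusted p under 0.05. It was fos-1, a factor of anchor cell function that is known to control aff-1 there, with means of 66.2 ± 2.89 FPKM for WT and 77.3 ± 2.76 FPKM for the mutant and with each mutant library above each WT library (log2 difference 0.22, limma adjusted p = 0.0651). The Hox gene lin-39, which holds vulval precursors back from fusing, was at 36.3 ± 0.970 and 40.5 ± 3.33 FPKM (adjusted p = 0.296). The proton pump subunit gene vha-17, known to restrain fusion in the epidermis, was at 201 ± 5.41 and 199 ± 3.55 FPKM (adjusted p = 0.845). Of 16 apical junction and polarity genes, which outline the seam cells among other epithelia, none was called and 2 had an unadjusted p under 0.05. The median log2 differences of these lists were 0.08 and 0.02.

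Of 10 products of seam cells and alae 8 were tested, and 1 fell. The median log2 difference of the 8 genes was -0.15, and 6 had an unadjusted p under 0.05, beside 23% of all features. Of all features tested 6.40% were called. The hedgehog-related gene wrt-2 (F52E4.6) was at 93.0, 117 and 131 FPKM in WT replicates 1 to 3 and at 42.6, 38.6 and 63.5 FPKM in mutant replicates 1 to 3 (log2 difference -1.24, SE 0.211, limma adjusted p = 0.0260). The other genes of the list that had an unadjusted p under 0.05 lay on both sides of WT and missed the threshold. The gene grd-3 was at 129, 110 and 90.7 FPKM in the WT libraries and 160, 162 and 134 FPKM in the mutant libraries, and grd-10 at 181, 169 and 149 against 189, 191 and 190 FPKM. Both had each mutant library above each WT library (adjusted p = 0.109 and 0.176), and grd-3 passed with a block for the replicate number (0.0413) and with library weights (0.0101). The gene dex-1 was above WT too, with means of 27.6 ± 2.53 FPKM for WT and 35.7 ± 3.63 FPKM for the mutant and no overlap (log2 difference 0.36, adjusted p = 0.106). The cuticlin gene cut-4 was below WT in each mutant library, at 50.4 ± 3.14 and 37.8 ± 5.35 FPKM (log2 difference -0.41, adjusted p = 0.0961). The cuticlin gene cut-6 was at 12.6 ± 3.05 and 7.08 ± 2.60 FPKM (log2 difference -0.77, adjusted p = 0.168), and its groups overlapped. The cuticlin genes cut-1 and cut-3 were below the minimum mean of 1 FPKM. The 8 seam markers (wrt-2, grd-10, grd-3, nhr-73, elt-1, and the members ceh-16, egl-18 and elt-6) were all detected in every library, and their summed level was 488 to 501 FPKM in WT and 495 to 502 FPKM in the mutant. That sum hides differences in both directions, since grd-10 and grd-3 were higher and wrt-2 lower in the mutant. Of the 8 markers 6 did not overlap between the groups, beside 28.7% of all features. These were ceh-16, egl-18, elt-6, wrt-2, grd-10 and grd-3. At an unadjusted p under 0.05 there were 4 (elt-6, wrt-2, grd-10 and grd-3), beside 23% of all features. Both counts repeat values given above for the members and the seam products, and add nothing to them. The gene wrt-2 missed the threshold when WT replicate 2 or 3 (adjusted p = 0.109 and 0.0683) or mutant replicate 1 or 2 (0.0990 and 0.0847) was left out.

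**Figure D4:**
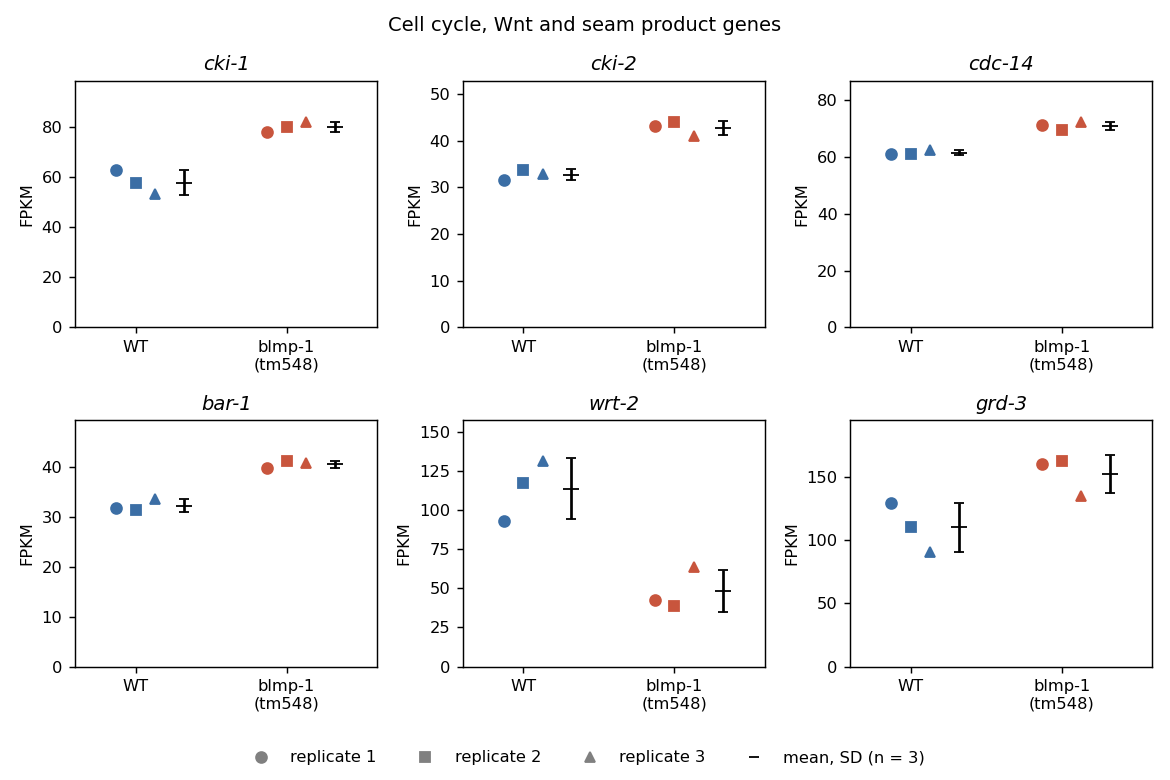
FPKM (linear axes from 0) of cki-1, cki-2, cdc-14, bar-1, wrt-2 and grd-3 in each library by group, with the marker shape giving the replicate number and the black bar the mean with SD (n = 3). The groups are apart for all 6 genes, with the mutant below WT for wrt-2 and above it for the other 5, of which grd-3 missed the threshold (adjusted p = 0.109) except with a replicate block or library weights.

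The genes whose values over the 6 libraries were most like those of each member were sought among 12590 protein-coding genes of at least 300 nt of exon and a mean of at least 5 FPKM, by Pearson r of log2(FPKM + 1). With so few libraries, all shared by the genes compared, high values of r were common. For elt-6 the closest were lmbr-1, lact-5 and Y54G2A.11 (r = 0.998, 0.998 and 0.997), and 197 genes reached 0.95. For egl-18 they were crh-1, atg-9 and nrsn-1 (r = 0.994, 0.993 and 0.992). For bro-1 they were Y71A12B.12, aars-2 and Y39A3B.1 (0.996, 0.996 and 0.995), with 127 genes at 0.95 or more, and for aff-1 C03G6.17, Y43B11AR.3 and Y73F4A.3 (0.991, 0.989 and 0.989), with 71. For rnt-1 they were ncs-6, sdc-3 and suco-1 (0.988, 0.986 and 0.983), with 39, and for ceh-16 B0212.3, E04F6.10 and mlt-2 (0.983, 0.981 and 0.977), with 20. For eff-1, which hardly varied with the groups, they were F49H12.4, lgc-53 and C30F8.3 (0.988, 0.959 and 0.946), with 2. Among the members themselves egl-18 and elt-6 had the highest r, 0.935. Many other genes were closer, since elt-6 ranked 171 of 12590 in likeness to egl-18, and egl-18 ranked 303 in likeness to elt-6.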

How the data were processed

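Per the labels' protocols, RNA of whole mid-L3 larvae was extracted with Qiazol and RNeasy columns, and sequenced after library preparation with a TruSeq kit. The authors deposited 1 table of gene-level FPKM values for the 6 libraries, and all columns were mapped to samples by strain and the letter in the sample descriptions. Per the submitters' processing notes, the tools included TopHat2 2.0.7, Cuffdiff and Cufflinks 2.0.2. Genome build, annotation and strand use were not given in the sources used here, so no coordinates are printed. Symbols, biotypes and exon lengths came from WBcel235 tables by sequence name (44877 of 45343 features matched). No sequence table was used.

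FPKM values are not counts, so log2(FPKM + 1) was fitted with limma 3.58.1 in R 4.3.3 across all 17058 features with a mean of at least 1 FPKM, with only the group in the model, a prior variance that follows the mean level, and Benjamini-Hochberg adjusted p-values. A fold on this scale understates changes of low genes. The script was tested on simulated data. Depth was estimated from the steps of low values (below a mean of 1 FPKM, tolerance 0.5%) in 338 genes with 1 transcript, and read numbers of members from it and WBcel235 exon lengths. Exact permutation tests used scipy 1.17.1.

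The members and lists were chosen with earlier results of these data known. Named genes were the 7 members, blmp-1, called list genes with the largest differences, others of each list by role, and the 3 genes closest in pattern to each member. Genes named for an unadjusted p, and bed-3, fbn-1, sys-1, wrm-1 and lit-1, were picked after their values were seen. Alternatives were a pseudocount of 0.1 or 0.5, all features above 0, a stricter minimum mean of 5 FPKM, protein-coding genes of at least 300 nt alone, median scaling, quantile normalization, library weights, an untrended prior variance, the replicate number as a block, replicates 2 and 3 alone, and each library left out.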

Additional observations from a re-analysis of the deposited data

How the results depend on the processing

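The number of the 7 members called was 0 in the reported fit and without any single library. It was 1 (elt-6) with a pseudocount of 0.1 or 0.5, a minimum mean of 5 FPKM, protein-coding genes alone or an untrended prior variance, and 2 (elt-6 and rnt-1) with library weights. The direction of ceh-16, egl-18, elt-6, rnt-1 and aff-1 was the same under each alternative run. That of bro-1 turned without WT replicate 3 or mutant replicate 1 (range without single libraries -0.48 to 0.046; 0.0017 without mutant replicate 1), and that of eff-1 without WT replicate 2 or mutant replicate 2 (0.034 and 0.074; range -0.089 to 0.074). At the small size of these differences the sign is not settled. The cause of the other changes was not tested.

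Over all features 1092 were called, with 4117 under library weights, 298 with replicates 2 and 3 of both groups, and 369 to 1332 without single libraries. It was 1332 without mutant replicate 3, and 369, 694, 416 and 396 without WT replicates 2 and 3 and mutant replicates 1 and 2. With library weights 3 epidermal factors, 4 Wnt, 6 cell cycle, 1 fusion, 7 seam product, 1 junction and 9 molting genes were called. With replicates 2 and 3 of both groups 0 Wnt, 0 cell cycle, 0 seam product and 0 molting genes were. Without single libraries the counts were 0 Wnt, 0 to 2 cell cycle, 0 to 1 seam product and 0 to 7 molting genes (3 in the reported fit). Quantile normalization called 1 epidermal factor. In the WT order of levels 3 neighbouring pairs were apart in the reported values, 5 over replicates 2 and 3 or without WT replicate 1, and 3 to 5 without single WT libraries.

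The replicate numbers did not pair the libraries: deviations from the group means of same-numbered libraries correlated at 0.13, -0.04 and 0.07 across features. Replicates 1 and 3 of each group correlated best with their own number, replicate 2 did not, and this is a hint from the data, not the design. With the replicate number as a block 929 features were called, the members' count was 0 (elt-6 adjusted p = 0.0654), Wnt genes gave 0 calls (bar-1 lost), cell cycle genes 2 (cdc-14 lost) and seam products 2 (wrt-2 and grd-3). In the labels the libraries of replicate 1 carry the letters A and B and the others G to J; whether the letters mark separate preparations is not stated, and the values over replicates 2 and 3 alone leave out A and B. Another scaling moved the median log2 difference of all features by at most 0.03. By the depth estimate ceh-16 and rnt-1 rested on the fewest reads of the members, about 30 to 97 per library.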
